A study of Mus musculus with 6 samples.

Results

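Cntnap2 and 8 relatives from the contactin-associated protein (Caspr) and contactin families were followed in the anterior cingulate cortex (ACC), a frontal midline region, of mice that had met a bacterial endotoxin as juveniles. The set holds 4 Caspr genes (Cntnap1, Cntnap2, Cntnap4 and Cntnap5a) and 5 contactin genes (Cntn1, Cntn2, Cntn3, Cntn4 and Cntn5), taken by symbol, and all 9 had a row among the 14250 rows of the table. The LPS group was 3 C57BL/6 mice injected intraperitoneally on postnatal day 14 with 50 µg per kg of lipopolysaccharide (LPS). The saline group was 3 C57BL/6 mice given pyrogen-free saline on the same day. ACC was dissected by hand on postnatal day 45 from perfused mice of both groups, and polyadenylated RNA of 1 mouse went into each library. The sources used here do not give the sex, litter or cage of the mice.

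Caspr proteins are single-pass membrane proteins related to neurexins, and contactins are immunoglobulin-domain proteins tied to the membrane by a lipid anchor. Pairs of them organise the myelinated axon. Caspr, from Cntnap1, joins contactin-1 at the paranode, where the myelin loops attach through glial neurofascin. Caspr2, from Cntnap2, joins contactin-2 at the juxtaparanode next to it and holds Kv1 potassium channels there. Caspr2 also acts at synapses, and human CNTNAP2 is a gene linked to epilepsy and autism.

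Cntnap2 was selected on its lower counts in LPS than in saline mice, measured in these same libraries, and its relatives were added by family. The values of the 9 genes between LPS and saline mice are therefore given as a description. Their 95% intervals and calls come from the fit of all rows and support nothing about genes chosen in this way.

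Cntnap2 lies on the plus strand of chromosome 6 at chr6:45059357-47304213 (GRCm38, GENCODE M21) and spans 2.24 Mb. The annotation gives it 6 transcripts. The full one has 24 exons and 9827 bases. A transcript of 4 exons and 6279 bases, and another of 4 exons and 1540 bases, begin near the 3′ end of the gene, at positions 47244387 and 47244453. The other 3 are fragments of 340 to 674 bases. RefSeq lists an upstream and an internal start, and the 250 bases before each are shown because annotated transcripts that begin near these starts differ in length, a quantity described further on. Capitals mark matches on either strand to 4 motifs. The TATA box was searched as TATAAA, the GC box bound by Sp1 as GGGCGG, the motif bound by NF-Y as CCAAT, and the E-box as CANNTG with N being any base. None of the matches overlap.

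Upstream start, chr6:45059811-45060060, plus strand, GRCm38.p6: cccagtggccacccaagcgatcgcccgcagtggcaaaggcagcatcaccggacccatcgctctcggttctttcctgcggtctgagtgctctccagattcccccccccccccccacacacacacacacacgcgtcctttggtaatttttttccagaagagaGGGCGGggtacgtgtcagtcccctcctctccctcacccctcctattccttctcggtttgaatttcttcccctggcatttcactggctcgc
Internal start, chr6:47244146-47244395, plus strand, GRCm38.p6: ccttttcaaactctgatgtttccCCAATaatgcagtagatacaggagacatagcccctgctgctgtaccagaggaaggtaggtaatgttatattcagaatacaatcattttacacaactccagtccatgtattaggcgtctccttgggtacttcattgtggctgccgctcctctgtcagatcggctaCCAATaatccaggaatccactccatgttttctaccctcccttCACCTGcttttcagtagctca

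The 2 windows differ in composition. The upstream window is 59.6% G and C with 13 CG dinucleotides, and the internal window is 45.2% with 3, while the median over 32851 promoter windows of the same length in RefSeq is 52.4% with 6. The upstream window holds 1 GC box and none of the other motifs. The internal window holds 2 matches to CCAAT and 1 E-box. Over all windows, 32.7% hold a GC box, 33.8% a CCAAT match, 66.2% an E-box and 12.4% a TATA box.

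**Figure D1:**
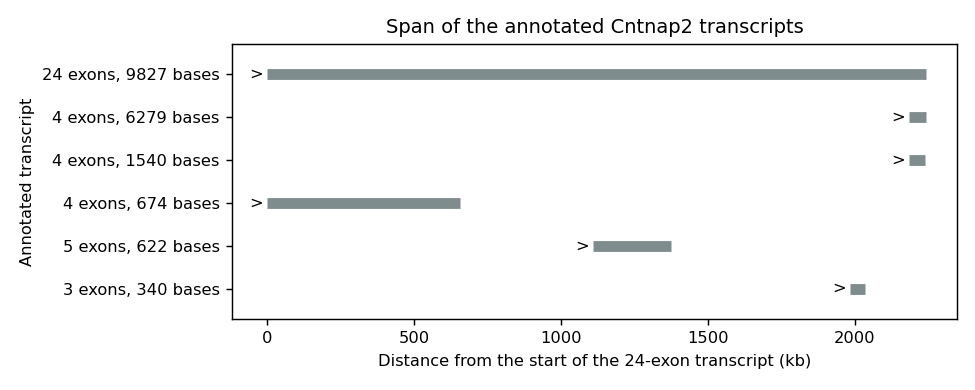
Span of each annotated Cntnap2 transcript along the gene, in kb from the start of the 24-exon transcript; bars are genomic spans, with no exons drawn, and arrowheads give the direction. The 4-exon transcripts of 6279 and 1540 bases occupy the 3′ end.

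Cntnap2 transcripts were lower in each LPS mouse than in each saline mouse. Counts scaled to library size (CPM) were 56.4, 60.7 and 51.7 in the LPS libraries and 94.6, 95.8 and 97.5 in the saline libraries. The means were 56.3 ± 4.47 CPM in LPS and 96.0 ± 1.48 CPM in saline mice (SD, n = 3 each). Cntnap2 was chosen on this gap, so its size relative to the spread is a description only. The log2 change in counts was -0.77 (SE 0.0675), which puts LPS mice at 58.6% of the saline level. Behind these values stood 1889 to 2455 reads in the LPS libraries and 3611 to 3835 in the saline libraries. In bulk tissue, fewer cells that express a gene and less RNA per cell cannot be told apart.

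On the authors' FPKM scale, which also divides by transcript length, the gap was wider. Cntnap2 had 5.88, 5.92 and 5.28 FPKM in LPS libraries, against 11.2, 12.0 and 11.2 FPKM in saline libraries. The difference between the group means of log2 FPKM was -1.01, which puts LPS mice at 49.6% of the saline level on that scale.

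The table thus gives Cntnap2 a different number of reads per FPKM in the 2 groups. Reads divided by FPKM and by library size give the transcript length that the FPKM calculation implied, once scaled so that genes with 1 annotated transcript take their annotated length. Of 1244 such genes, 98.9% to 99.1% in each library then came within 10% of the annotation. For Cntnap2 the implied length was 8919, 9138 and 8958 bases in LPS libraries and 7522, 7389 and 8152 bases in saline libraries. The groups did not overlap, at 9005 ± 117 bases in LPS and 7687 ± 407 bases in saline mice (SD, n = 3 each), a log2 difference of 0.23. An increase at least as large with no overlap was found in 50 of the 14250 rows (0.351%). These rows include genes with 1 annotated transcript, whose implied length can hardly differ between libraries. The share thus does not say how rare such an increase is among genes with transcripts of several lengths. The implied length also uses the counts by which Cntnap2 was chosen.

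No other gene of the set was longer in LPS libraries by a comparable amount. Cntnap1 stayed within 5436 to 5437 bases over the 6 libraries, next to its annotated transcript of 5440 bases. Cntnap5a, with 1 annotated transcript of 10945 bases, stayed within 10940 to 10947 bases. Cntnap4, Cntn1 and Cntn3 also held nearly 1 length, their longest library estimate exceeding the shortest by a factor of at most 1.005. Cntn4, with 13 annotated transcripts, ran from 4008 to 4977 bases in LPS libraries and from 4354 to 4915 bases in saline libraries, so its lengths varied as much as those of Cntnap2 but overlapped between groups. Cntn2 also overlapped, at 6792 to 7143 bases in LPS libraries and 6936 to 7122 bases in saline libraries. In Cntn5 the LPS libraries (3699 to 4082 bases) lay below the saline libraries (4156 to 4187 bases).

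**Figure D2:**
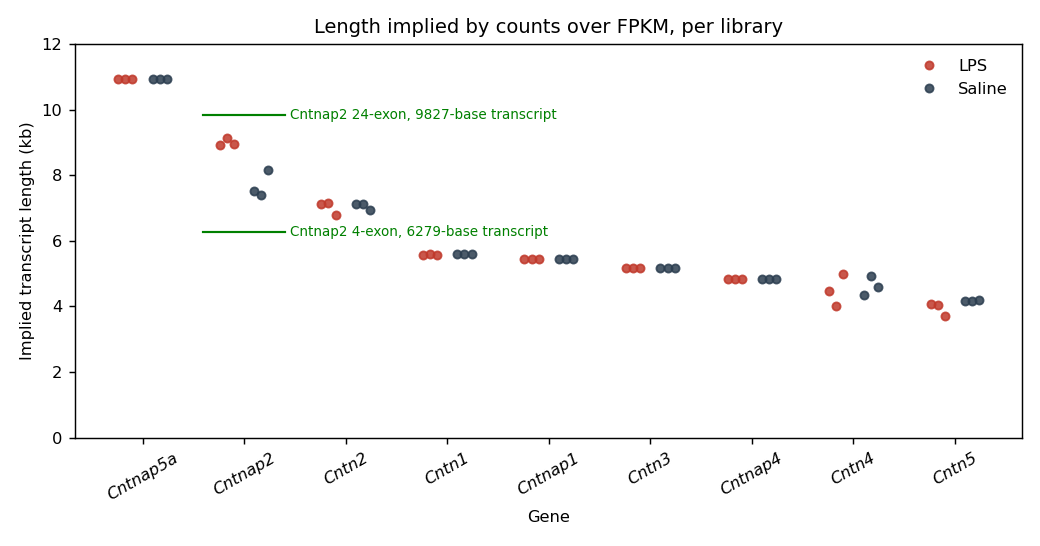
Transcript length in kb implied by counts and FPKM in each library (points; LPS left, saline right) for the 9 genes, with green lines at the annotated lengths of 2 Cntnap2 transcripts. The LPS points of Cntnap2 lie nearer to its 24-exon transcript than the saline points.

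What this length means for single transcripts depends on which ones are present, and the deposited table has 1 value per gene. If the 24-exon transcript and the 6279-base transcript were the only contributors, their arithmetic would give the 24-exon form 3.99 to 4.77 FPKM in LPS libraries and 3.77 to 5.89 FPKM in saline libraries. The 6279-base form would have 1.15 to 1.51 FPKM in LPS libraries and 5.27 to 8.27 FPKM in saline libraries. With the 1540-base transcript in its place, the 24-exon form would have 4.73 to 5.43 FPKM in LPS libraries and 8.07 to 8.91 FPKM in saline libraries, and the short form 0.492 to 0.644 FPKM in LPS and 2.26 to 3.54 FPKM in saline libraries. Pairing it with any of the fragments of 340 to 674 bases would give the 24-exon form 4.78 to 5.49 FPKM in LPS libraries. In saline libraries these pairings would give it 8.37 to 9.19 FPKM. Under every pairing the LPS values of the shorter form lie below the saline values. The arithmetic fixes this order, since each pairing only multiplies the same product of FPKM and length shortfall by a constant. The pairings thus repeat 1 result and lend each other no weight. The 24-exon form overlaps between groups under the 6279-base pairing only. The length model behind the authors' FPKM is not described in the sources used here, and the pairings were not tested against each other.

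In the fit of all rows, Cntnap2 was the only gene of the 9 past an adjusted p of 0.05 (edgeR quasi-likelihood test, Benjamini-Hochberg). In that fit 27 rows, or 0.189% of those tested, were lower in LPS mice and 14 rows, or 0.0982%, were higher. Of the 9 genes, 6 had a negative log2 change and 3 a positive one. Their median was -0.10, against 0.00 over all rows. Groups lay apart, with LPS below, in 2 of the 9 genes, Cntnap2 and Cntn3, where 6.84% of all rows showed this. Since the contrast entered the choice of genes, these counts describe the set and support nothing further.

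**Figure D3:**
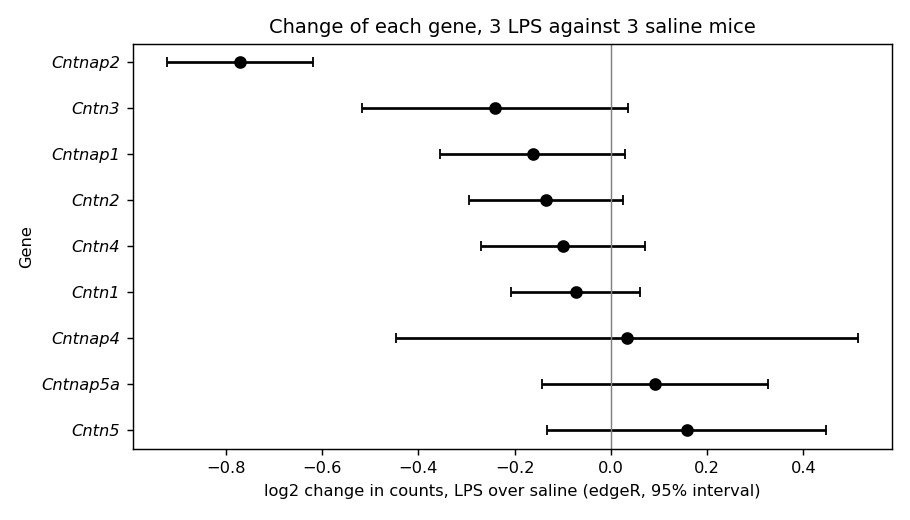
Log2 change in counts, LPS over saline, for each of the 9 genes (points, edgeR), with 95% intervals as bars. The Cntnap2 interval, -0.92 to -0.62, lies below 0, and the intervals of the other 8 genes include 0.

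Cntn2 is the gene of contactin-2, the partner of Caspr2. It had 86.6, 91.9 and 83.0 CPM in LPS libraries, against 89.1, 103.9 and 94.1 CPM in saline libraries. The groups overlapped, with a log2 change of -0.14 (SE 0.0713, 95% interval -0.30 to 0.02). The level of Cntnap2 per Cntn2, in FPKM, was 0.473 to 0.521 in LPS libraries and 0.881 to 1.01 in saline libraries. These ranges did not overlap, and those of Cntn2 itself did. In CPM the ratio was 0.624 to 0.660 in LPS libraries and 0.922 to 1.06 in saline libraries. Both ratios contain the Cntnap2 values by which the gene was chosen, so their gap restates that choice and says nothing about the pair.

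Cntnap1 and Cntn1, the paranodal pair, were the most abundant of the set. Cntnap1 had 218.8, 212.6 and 215.2 CPM in LPS libraries and 252.3, 264.3 and 207.3 CPM in saline libraries. Saline 3 lay below all LPS libraries and the other saline libraries above them, so the groups overlapped (log2 -0.16, SE 0.0853, 95% interval -0.35 to 0.03). Of its exons, 233 bases are shared with Plekhh3 on the other strand, and no label says that the library kit keeps the strand, which leaves part of its reads uncertain. Cntn1 had 392.2, 374.4 and 345.5 CPM in LPS libraries and 394.3, 393.1 and 382.5 CPM in saline libraries (log2 -0.07, SE 0.0597, 95% interval -0.21 to 0.06). The Cntnap1 level per Cntn1 in FPKM overlapped, at 0.572 to 0.640 in LPS libraries and 0.557 to 0.692 in saline libraries.

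Cntnap4, whose protein is known from mouse interneurons, where it acts at presynaptic terminals, varied most within groups. It had 41.6, 30.2 and 26.6 CPM in LPS libraries and 28.9, 29.3 and 38.1 CPM in saline libraries. One library in each group stood above the others, and the log2 change was 0.03 (SE 0.197, 95% interval -0.45 to 0.51). This sign turned when LPS 1, Saline 1 or Saline 2 was left out. Cntnap5a, a Caspr gene of less well known function, had 28.4, 34.8 and 28.1 CPM in LPS libraries and 27.6, 26.7 and 31.4 CPM in saline libraries. Its log2 change was 0.09 (SE 0.104, 95% interval -0.14 to 0.33), and the sign turned without LPS 2.

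Cntn3, Cntn4 and Cntn5 belong to the contactin subgroup that binds the receptor phosphatase PTPRG. Cntn3 had 19.2, 25.6 and 25.9 CPM in LPS libraries and 26.4, 30.5 and 26.6 CPM in saline libraries. Each LPS value was below each saline value, by little in LPS 2 and LPS 3 (log2 -0.24, SE 0.122, 95% interval -0.52 to 0.03). On the FPKM scale the Cntn3 groups overlapped, at 3.45 to 4.57 in LPS libraries and 4.53 to 5.47 in saline libraries. Cntn4, whose protein also binds the amyloid precursor protein, had 43.4, 44.7 and 45.3 CPM in LPS libraries and 51.8, 47.7 and 43.4 CPM in saline libraries (log2 -0.10, SE 0.0757, 95% interval -0.27 to 0.07). Cntn5, the least abundant of the set per length, had 7.49, 6.28 and 6.25 CPM in LPS libraries and 5.76, 6.32 and 5.86 CPM in saline libraries (log2 0.16, SE 0.129, 95% interval -0.13 to 0.45). Both overlapped between groups.

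Per length, the order of the set was led in both groups by Cntn1, at 56.6 to 65.4 FPKM in LPS libraries and 62.6 to 65.2 FPKM in saline libraries. Cntnap1 followed at 34.9 to 37.4 FPKM in LPS libraries and 35.6 to 45.1 FPKM in saline libraries. Cntnap2 was the gene whose place differed. In LPS libraries it stood at 5.28 to 5.92 FPKM, within the range of Cntnap4 (5.01 to 7.98) and below Cntn4 (8.32 to 9.95) and Cntn2 (11.2 to 11.5). In saline libraries it stood at 11.2 to 12.0 FPKM, within the range of Cntn2 (11.1 to 13.6) and above Cntn4 (8.79 to 10.6). Cntnap4 and Cntn3 came next and overlapped in saline libraries (5.30 to 7.32 and 4.53 to 5.47 FPKM) but not in LPS libraries (5.01 to 7.98 and 3.45 to 4.57 FPKM). Cntnap5a and Cntn5 closed the order in both groups, at 2.25 to 2.83 FPKM and 1.23 to 1.71 FPKM over the 6 libraries. Of the summed FPKM of the 4 Caspr genes, Cntnap2 made up 10.8% to 12.0% in LPS libraries and 18.5% to 19.7% in saline libraries. Cntnap1 made up 69.7% to 74.1% in LPS libraries and 62.7% to 69.4% in saline libraries. The sum includes Cntnap2, chosen for its lower LPS counts, and a lower Cntnap2 by itself raises the shares of the others. The FPKM of Cntnap1 itself overlapped between groups.

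**Figure D4:**
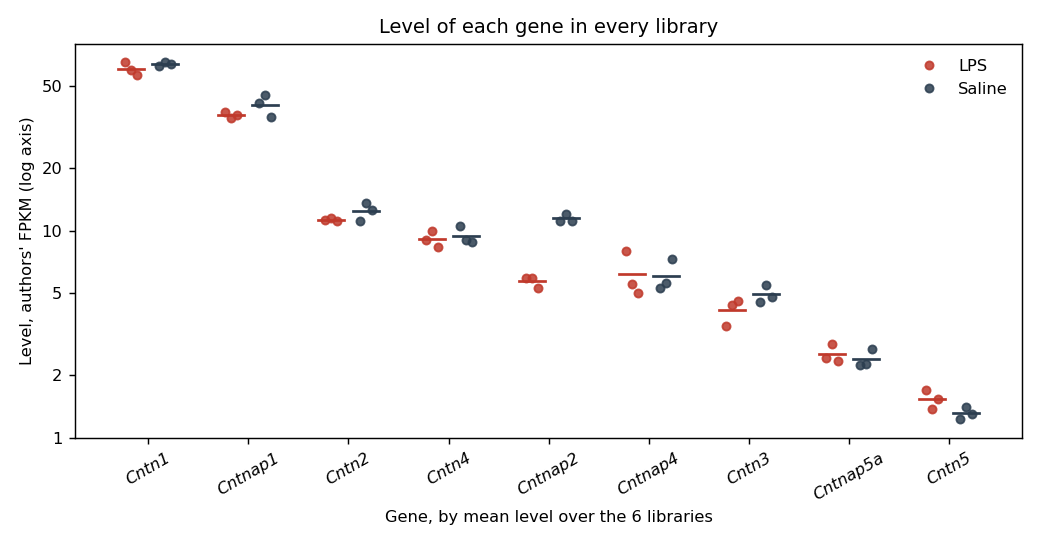
Authors' FPKM of each of the 9 genes in every library on a log axis (points), with group means as lines, LPS left and saline right. Cntnap2 is the gene whose 2 clusters of points are separate, at 5.28 to 5.92 FPKM in LPS libraries and 11.2 to 12.0 FPKM in saline libraries.

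The remaining genes of the 2 families were Cntnap3, Cntnap5b, Cntnap5c and Cntn6, and 0 of the 4 passed in edgeR or DESeq2, with 1 at an unadjusted p under 0.05 in edgeR. Cntnap3 had 9.97, 8.55 and 9.48 CPM in LPS libraries and 7.20, 6.69 and 8.10 CPM in saline libraries. All LPS values were above all saline values (log2 0.35, SE 0.120, edgeR adjusted p = 0.545). Cntnap5a, Cntnap5b and Cntnap5c are close relatives, and how the authors assigned reads that match several genes is not given in the sources used here.

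Partner and related genes were then counted together with the 4 family genes just named. Over these 8 lists with 89 genes, all measured, 0 passed in edgeR (background 0.288% in either direction) and 4, with Cntnap3 among them, had an unadjusted p under 0.05 (4.49%, against 7.17% of all rows). DESeq2 called 1, Tnc, and limma-voom 0. With edgeR calling 0.288% of all rows, 0 calls among 89 genes say little about the partners. The median log2 change of the 89 was -0.03, with 49 negative and 40 positive.

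Of 17 juxtaparanodal partners, 12 had a negative and 5 a positive log2 change, with a median of -0.07. Kcna1, a Kv1 channel subunit gene, had 53.0, 60.1 and 46.5 CPM in LPS libraries and 60.7, 59.8 and 55.9 CPM in saline libraries (log2 -0.14, SE 0.0911). Its fellow subunit gene Kcna2 varied by up to 5.27-fold within a group, with 63.5, 225.1 and 256.3 CPM in LPS libraries and 56.6, 298.4 and 247.1 CPM in saline libraries. For Mpdz, a scaffold with many PDZ domains, the log2 difference was -0.13, with an SE of 0.0769 (edgeR adjusted p = 0.784). It was 0.11 for Dlg4, a postsynaptic scaffold also found at the juxtaparanode (SE 0.0562, edgeR adjusted p = 0.756). Adam22, a receptor for secreted LGI proteins, had a value of 0.01 (SE 0.0511).

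Among 6 paranodal partners the median was -0.04, with Epb41l3, the cytoskeletal linker that binds Caspr proteins, at -0.13 (SE 0.0786) and its relative Epb41l2 at 0.15 (SE 0.0815). The 16 genes of the node and axon initial segment had a median of -0.10, with 12 negative and 4 positive. The auxiliary sodium channel subunit gene Scn4b was at -0.34, with an SE of 0.15 (edgeR adjusted p = 0.703).

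Among 10 contactin ligands and receptors, with a median of 0.02, Tnc stood out. It codes for tenascin-C, a matrix protein, and had 5.17, 6.30 and 5.92 CPM in LPS libraries and 2.17, 3.25 and 3.63 CPM in saline libraries. All LPS values were above all saline values (log2 0.94, SE 0.203), but edgeR did not call it (adjusted p = 0.168) and DESeq2 did (adjusted p = 0.00557). The receptor phosphatase genes Ptprz1 and Ptprg had log2 changes of 0.02 (SE 0.0916) and 0.08 (SE 0.115). The adhesion gene Nrcam was at -0.14 (SE 0.0719).

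The related neurexin system, 20 genes, had a median of 0.00, with Nlgn2, of inhibitory synapses, at 0.13 (SE 0.0606). The 20 other immunoglobulin adhesion genes had a median of 0.01. Alcam, an axon guidance adhesion gene, had 135.7, 106.0 and 127.9 CPM in LPS libraries and 141.1, 153.5 and 152.4 CPM in saline libraries (log2 -0.27, SE 0.0896, edgeR adjusted p = 0.516). Sdk2 was at 0.23 (SE 0.109).

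Human FOXP2 is known to bind CNTNAP2, and 3 transcription factor genes tied to it were Foxp1, Foxp2 and Tcf4. Foxp1 had 40.8, 93.1 and 47.4 CPM in LPS libraries and 102.4, 97.1 and 89.6 CPM in saline libraries. In these counts LPS 2 lay within the saline range and the other LPS libraries far below it (log2 -0.67, SE 0.364, edgeR adjusted p = 0.784). Leaving out LPS 2 gave -1.13 and an edgeR adjusted p of 0.00127, past the threshold. On the authors' FPKM scale the order differed, with 16.5, 16.0 and 19.1 FPKM in LPS libraries and 18.8, 21.4 and 20.3 FPKM in saline libraries. There LPS 2 was the lowest library and LPS 3 lay within the saline range. Foxp2 varied by over 2-fold within the LPS group (log2 0.19, SE 0.345), and Tcf4 had a log2 change of 0.11 (SE 0.257).

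**Figure D5:**
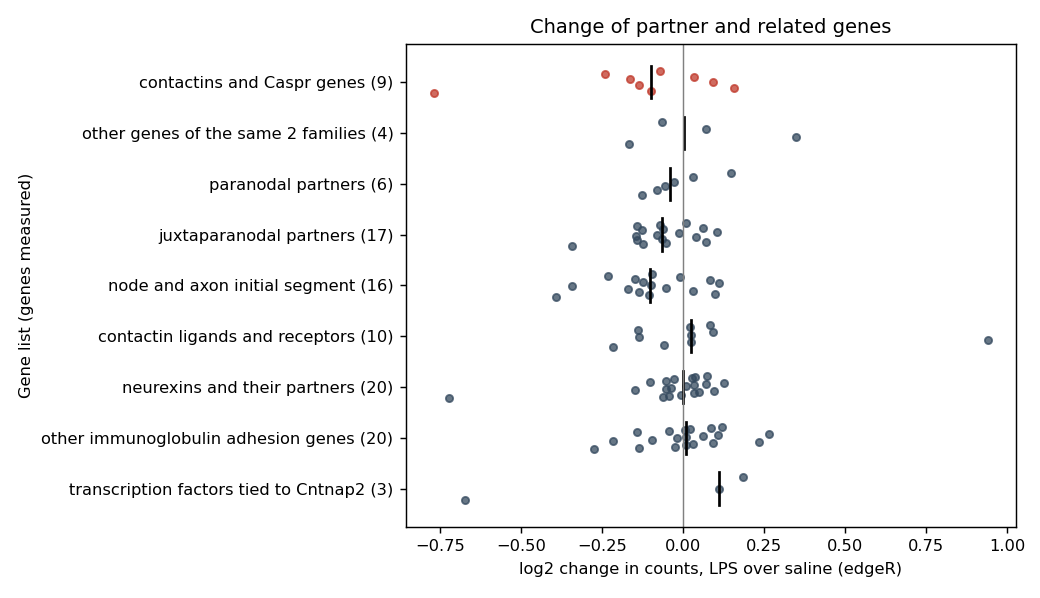
Log2 change in counts, LPS over saline (edgeR), of each gene (points) in the set and in 8 lists of partner and related genes, with black lines at list medians. Cntnap2, at -0.77, is the lowest point in the plot and Tnc, at 0.94, the highest.

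Wide spread between mice of 1 group marked some of these partners and none of the 9 genes. In 7 of the 89 genes, among them Kcna2, Chl1, Foxp1 and Scn1a, the highest library of a group exceeded the lowest by over 2-fold. In the set, Cntnap4 was widest at 1.56-fold and Cntnap2 was at 1.17-fold.

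The tissue and its composition were read from marker genes of 9 cell classes or regions, none of which was at 0 in any library. None of these 72 genes was called by edgeR, by DESeq2 or by limma-voom (0 each). With edgeR calling 0.288% of all rows, 0 calls among 72 genes say little about composition. Of the 72, 10 (13.9%, against 7.17% of all rows) were at an unadjusted p under 0.05 in edgeR. Among these 10 were 4 inhibitory neuron and 3 oligodendrocyte precursor markers. Summed excitatory neuron markers ran from 7538 to 8061 CPM in LPS libraries and from 7319 to 8379 CPM in saline libraries. Summed myelin and oligodendrocyte markers ran from 2076 to 2871 CPM in LPS libraries and from 2078 to 2655 CPM in saline libraries. Both ranges overlapped between groups. Inhibitory neuron markers summed to 1142 to 1321 CPM in LPS libraries and 1106 to 1134 CPM in saline libraries. These CPM ranges were apart, but the same sum overlapped in FPKM, at 1035 to 1243 in LPS libraries and 1059 to 1071 in saline. Gene by gene, the inhibitory markers had a median log2 change of 0.13, with 9 positive and 1 negative. Among these markers, Gad2 and Dlx1 had log2 changes of 0.27 and 0.33 (edgeR adjusted p 0.414 and 0.307). Striatal markers summed to 123.3 to 133.1 CPM in LPS libraries and 129.7 to 133.7 CPM in saline libraries, and thalamic ones to 92.1 to 103.7 CPM in LPS libraries and 90.3 to 120.5 CPM in saline libraries. Median log2 changes were 0.17 for oligodendrocyte precursor, 0.01 for astrocyte, 0.04 for microglia and 0.04 for endothelial markers. The medians cover members of both signs. Of the 3 precursor markers at an unadjusted p under 0.05 in edgeR, Gpr17 (0.21) and Pdgfra (0.20) were higher and Sox10 (-0.16) lower. Of the microglia markers 5 were positive and 2 negative, Aif1 among these at -0.47. Astrocyte markers summed to 3076 to 6144 CPM in LPS libraries and 3186 to 5675 CPM in saline libraries. Slc1a2 alone ran from 752 to 3755 CPM in LPS libraries and 866 to 3365 CPM in saline libraries. The share of reads in unannotated newGene rows was 1.61% to 2.03% in LPS libraries and 2.51% to 2.93% in saline libraries. A large part of this gap lay in 1 row, Mus_musculus_newGene_8516. It had 135860, 281561 and 159198 reads in LPS libraries and 428546, 269998 and 375515 reads in saline libraries, which overlapped in CPM. The part of the inhibitory marker sums and of the newGene share in the Cntnap2 values was not tested. Library totals were 36168687 to 41270737 counts in LPS and 37416194 to 39804999 counts in saline mice.

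Of 41 tested genes within 3 Mb of Cntnap2, 0 passed in edgeR or DESeq2. As edgeR called 0.288% of all rows, 0 calls among 41 genes say little about the neighbours. An unadjusted p under 0.05 in edgeR was found for 4 of them (9.76%, against 7.17% of all rows). Log2 changes were positive in 27 and negative in 14, with a median of 0.05. Cul1, a ubiquitin ligase scaffold 149 kb beyond the end of the gene, was at -0.03 (SE 0.0524). Ezh2, of the Polycomb complex, was at 0.26 (SE 0.218).

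Cntnap2 is among the longest mouse genes, and no other gene that spans over 1 Mb was called. Of 55 tested genes that span over 1 Mb, Cntn4 and Cntn5 included, edgeR called 1, Cntnap2, the gene chosen on this contrast. Over all rows edgeR called 0.288%, so few calls among 55 genes say little about long genes. An unadjusted p under 0.05 in edgeR was found for 5 of them (9.09%, against 7.17% of all rows). Their median log2 change was -0.01, with 32 negative and 23 positive. Span here runs between the outermost ends of all annotated transcripts of a gene, so 1 unusual transcript can make it long. By this span the 5 longest were Fgfr2 (log2 -0.01, SE 0.0950), Ptprd (-0.07, SE 0.0798), Dmd (0.04, SE 0.140), Cntnap2 and Lsamp (0.01, SE 0.0714). Next to Cntnap2, the lowest of the 55 was Fhit at -0.67, with a wide error (SE 0.314, edgeR adjusted p = 0.710).

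Genes with a pattern over the 6 libraries like that of Cntnap2 were sought among rows with an ordinary symbol. Rows of newGene, Gm, Rik, unannotated and pseudogene type were left out. Likeness was the root mean square difference of log2 CPM, each gene centred on its own mean. The closest 5 were Hspa1b, an inducible heat shock gene (0.0821), Nr4a2, a nuclear receptor gene (0.0829), Kdm2a, a histone demethylase gene (0.0980), Gadd45b, a stress response gene (0.103), and Dusp5, a MAP kinase phosphatase gene (0.125). Reads of Hspa1b can be shared with its near-identical neighbour Hspa1a. In Hspa1b the libraries stood at 12.6, 12.7 and 12.3 CPM in LPS and 21.9, 21.5 and 19.7 CPM in saline mice. All 5 were lower in each LPS mouse than in each saline mouse, with log2 changes from -0.71 to -0.90, which follows from choosing them by their likeness to Cntnap2.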

How the data were processed

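The table deposited by the authors holds raw counts of reads and, in further columns, FPKM values (fragments scaled to transcript length and library depth). TopHat2 2.1, DESeq 1.10.1 and build GRCm38 are named per the submitters' processing notes, without roles. The sources used here do not give the counting program, the annotation or the rule for reads that match several genes. Of 14250 rows, 13562 had Ensembl identifiers, of which 13559 were in GENCODE M21 (GRCm38), and 688 were newGene rows. Date-like symbols in 23 rows were replaced by the annotation's.

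Counts were tested with edgeR 4.0.16 in R 4.3.3 (robust quasi-likelihood, TMM factors, treatment as only term, all 6 libraries). FilterByExpr removed 0 rows. P-values are two-sided, adjusted by Benjamini-Hochberg over all rows, with a threshold of 0.05. Intervals are 95%. CPM used TMM factors. DESeq2 1.42.0 and limma 3.58.1 served as alternatives, with voom or with log2(FPKM + 1) and log2(FPKM + 0.1). Other alternatives were RLE factors, dropping the filter, requiring 50 counts on average, the replicate number as a block and leaving out each library.

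The members and lists were chosen with earlier results of these data known. Named are the 9 genes, the genes past the threshold and the 2 with the smallest p in partner lists. Also named are neighbours within 3 Mb, the 5 longest genes and, among ordinary symbols, the 5 genes most like Cntnap2. Some genes that this rule names are not reported here. Kcna1, Kcna2, Adam22, Ptprz1, Ptprg, Chl1, Scn1a, Tcf4 and Fhit were added after their values were seen, as was the implied length. So were the marker genes Gpr17, Pdgfra, Sox10, Aif1, Cx3cr1 and Slc1a2. No libraries were near-duplicates (chi-square per degree of freedom at least 32.1). The labels give 1 mouse per library.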

Additional observations from a re-analysis of the deposited data

How the results depend on the processing

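Because Cntnap2 was chosen by its counts in these libraries, its values under the 14 alternatives are a description and no sign of stability. Its log2 change ran from -0.71 to -0.998 over them, and from -0.71 to -0.83 when 1 library was left out. Rows higher numbered 14, against 60 with DESeq2 and 8 with limma on either FPKM scale, and rows lower numbered 27, against 80 with DESeq2. The cause was not tested. Without any 1 library there were 14 to 20 rows higher, 22 to 35 lower, and in each case 1 of the 9 genes lower and 0 higher. Partner genes called were 0, against 1 with DESeq2 (Tnc), and 0 to 1 when 1 library was left out (Foxp1 without LPS 2). With 1 library left out, the log2 change of Cntnap4 ran from -0.1745 to 0.174 and was below 0 without LPS 1, Saline 1 (-0.0371) or Saline 2 (-0.0289). That of Cntnap5a ran from -0.0152 without LPS 2 to 0.1653. The other 6 genes kept the sign of their log2 change in all alternatives and none passed. The implied length difference of Cntnap2 was 0.20 to 0.27 with 1 library left out and 0.24 on library totals, all added after seeing the data. No filter removed no row and so tests nothing.

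The replicate number did not pair the libraries: same-numbered deviations correlated at -0.03, 0.03 and 0.04, and LPS 1 correlated best with Saline 2. With the replicate block, rows higher were 10 and lower 21, and the log2 change of Cntnap2 was -0.77. With 3 mice a group, the 95% intervals of the other 8 genes reached down to -0.52 (Cntn3) and up to 0.51 (Cntnap4), so they do not show that these genes were equal between groups.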
